A study of Mus musculus with 6 samples.

Results

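The perineuronal net is a lattice of extracellular matrix that wraps the cell body and proximal dendrites of some neurons, above all fast-spiking parvalbumin interneurons in the cortex. Its backbone is hyaluronan, to which chondroitin sulphate proteoglycans of the lectican family bind. Link proteins fasten that bond, and tenascins cross-link the lecticans at their other end. A set of 10 genes, chosen by gene name, was followed: the lecticans Acan, Bcan and Ncan, the link proteins Hapln1, Hapln2 and Hapln4, the tenascins Tnr and Tnc, the hyaluronan synthase Has3, and Ptprz1, a receptor phosphatase whose secreted form, phosphacan, is itself a chondroitin sulphate proteoglycan. All 10 were found among the 33182 genes of the table, and 9 of them were among the 15740 genes tested. Tnc, at a mean of 0.434 FPKM (fragments scaled to transcript length and to mapped fragments), fell under the minimum mean of 0.5 FPKM.

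RNA from the motor cortex of SOD1G93A mice, a model of amyotrophic lateral sclerosis that carries a mutant human SOD1, was sequenced at day 120. There were 3 libraries from ultrasound-treated mice and 3 from control mice, and every mouse carried the transgene. The series names the treatment low-intensity pulsed ultrasound. The sources used here do not state its dose or schedule, the sex of the mice, the event from which the day was counted or what the controls received. The labels name a mouse for each library but say no more about separate animals, so a p-value reflects library-to-library spread, which may be technical. In bulk cortex, fewer cells of a type and less RNA per cell cannot be told apart.

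Total counts ran from 42726633 to 45885619 in the ultrasound libraries and from 38202541 to 60088636 in the control libraries. Ultrasound 2 and control 3 were richest in 18S ribosomal RNA, at 9.18% and 4.68% of their counts, against at most 1.67% in the other 4. The excitatory cortical gene Slc17a7 ranged from 196 to 247 FPKM in ultrasound libraries and from 161.5 to 206 FPKM in control libraries. Control 3 also held olfactory bulb transcripts, with Cdhr1 at 24.1 FPKM against at most 2.14 FPKM elsewhere, and ultrasound 3 had the choroid plexus gene Ttr at 235 FPKM, against at most 12.7 FPKM elsewhere. Of the other tested choroid plexus genes, Kl was also highest there, at 2.04 FPKM, while Clic6 had 3.23 FPKM in ultrasound 3 and 3.49 FPKM in control 3, and Aqp1 had 0.714 FPKM in ultrasound 3 and 3.12 FPKM in control 3. The striatal gene Ppp1r1b ranged from 129 to 192 FPKM in ultrasound libraries and from 58.3 to 181 FPKM in control libraries.

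The neurocan gene Ncan, the link protein gene Hapln1 and the phosphacan gene Ptprz1 had higher values in every ultrasound library than in any control library, and the remaining tested net genes did not separate. None of the 9 tested genes passed the threshold of 0.05 on the adjusted p in edgeR's quasi-likelihood test, where 0.00635% of all genes passed. DESeq2 passed 0 of 9 as well, where 0.184% of all genes passed. Limma passed 0 of all tested genes, the net genes among them. At an unadjusted p under 0.05, edgeR gave 3 of 9, namely Ncan, Hapln1 and Ptprz1, all higher with ultrasound, against 2.45% of all tested genes in that direction. DESeq2 gave 4 of 9 higher and 0 lower, against 3.02% of all genes higher and 2.66% lower. Limma gave 3 of 9 higher and 0 lower, against 1.77% of all genes higher and 3.07% lower. Ncan, Hapln1 and Ptprz1 were also the 3 of 9 whose FPKM values did not overlap between the groups, against 3.7% of all tested genes higher with ultrasound in this way. Of the 9, 5 had a log2 fold change above 0, against 48.8% of all tested genes. Their median log2 fold change was 0.08, and that of all tested genes was -0.01.

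**Figure D1:**
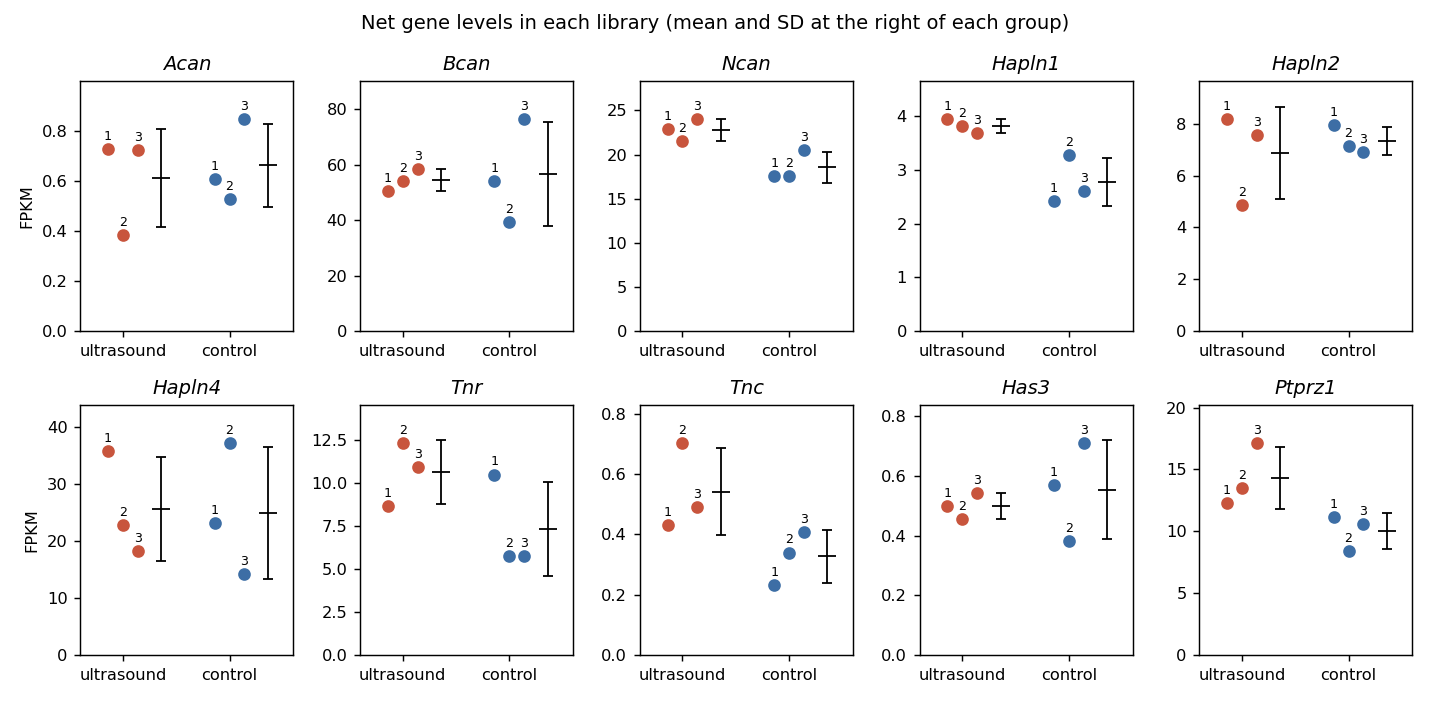
FPKM of the 10 net genes in each library, with ultrasound libraries (red) to the left of control libraries (blue), library numbers above the points, and the mean and SD (n = 3) beside each group. Ncan, Hapln1, Tnc and Ptprz1 do not overlap between the groups, and the other 6 do.

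Levels per length spanned a wide range. Bcan had the highest mean over the 6 libraries, 55.6 FPKM, and its lowest library, at 39.4 FPKM, lay above the highest Hapln4 library, at 37.2 FPKM. Hapln4 and Ncan came next and overlapped, with Hapln4 above Ncan in 4 of 6 libraries. Ncan lay above Ptprz1 in all 6, and Ptprz1 above Tnr in all 6, although the Ptprz1 and Tnr ranges overlapped. Tnr and Hapln2 overlapped, and Hapln1 lay below both in all libraries, between 2.42 and 3.94 FPKM. Acan, Has3 and Tnc had overlapping ranges, with a highest value of 0.847 FPKM. Acan, the lectican most closely tied to nets around parvalbumin neurons, was thus among the least abundant of the 10 transcripts in these libraries.

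Aggrecan, encoded by Acan, had 0.728, 0.384 and 0.723 FPKM in ultrasound libraries 1 to 3, against 0.610, 0.530 and 0.847 FPKM in control libraries 1 to 3. The groups overlapped, the lowest value was in ultrasound 2 and the highest in control 3, the libraries richest in 18S RNA. The counts behind these values ranged from 148 to 289. The log2 fold change was -0.09 (SE 0.34, edgeR adjusted p = 0.997). It was 0.12 without ultrasound 2, 0.13 without control 3 and 0.34 without both, so the direction rested on those libraries.

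Brevican, the brain lectican encoded by Bcan, had 50.6, 54.3 and 58.5 FPKM in ultrasound libraries and 54.1, 39.4 and 76.4 FPKM in control libraries. All 3 ultrasound values lay between the lowest control, control 2, and the highest, control 3. The mean was 54.5 ± 3.97 FPKM with ultrasound and 56.6 ± 18.6 FPKM in controls (SD, n = 3 each), so the spread among controls was the wider. Its log2 fold change was -0.02 (SE 0.24, edgeR adjusted p = 0.999), 0.26 without control 3 and 0.05 without ultrasound 1.

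Neurocan, a lectican encoded by Ncan that is abundant in the young brain, was more even. It had 22.8, 21.5 and 24.0 FPKM in ultrasound libraries, against 17.5, 17.6 and 20.6 FPKM in control libraries. The closest pair was ultrasound 2 above control 3, both rich in 18S RNA. The means were 22.8 ± 1.23 FPKM with ultrasound and 18.5 ± 1.74 FPKM in controls (SD, n = 3 each). For Ncan the log2 fold change was 0.33 (SE 0.12), at an unadjusted p of 0.0258 and an adjusted p of 0.973 in edgeR. It stayed between 0.29 and 0.42 with each library left out, and was 0.41 without control 3 and ultrasound 2.

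Counted as shares of the summed FPKM of the lecticans Bcan, Ncan, Vcan and Acan, brevican transcripts made up 67.0% to 70.2% with ultrasound and 67.5% to 77.2% in controls. Neurocan transcripts made up 27.9% to 30.2% with ultrasound and 20.8% to 30.1% in controls. The groups overlapped in both shares. Vcan, the lectican versican, and Acan reached at most 2.19% and 0.964% of that sum in any library. Vcan itself had a log2 fold change of 0.07 (SE 0.25, edgeR adjusted p = 0.997).

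Hapln1, which makes the link protein of cartilage and of most nets, had 3.94, 3.81 and 3.69 FPKM in ultrasound libraries, against 2.42, 3.28 and 2.61 FPKM in control libraries. The ultrasound values lay close together, all above control 2, the highest control. The means were 3.81 ± 0.128 FPKM with ultrasound and 2.77 ± 0.450 FPKM in controls (SD, n = 3 each). Hapln1 had a log2 fold change of 0.50 (SE 0.17), at an unadjusted p of 0.0185 and an adjusted p of 0.973 in edgeR. With single libraries left out it ranged from 0.42 to 0.63, and without control 3 and ultrasound 2 it was 0.42. A processed pseudogene, Gm8546, lies within the span of Hapln1 on the opposite strand and had at most 49 counts, where Hapln1 had at least 660.

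Hapln2, the link protein of nodes of Ranvier made by oligodendrocytes, had 8.18, 4.86 and 7.57 FPKM in ultrasound libraries, against 7.94, 7.15 and 6.90 FPKM in control libraries. Ultrasound 2 was the lowest library and ultrasound 1 the highest, with all controls between them. The oligodendrocyte gene Mbp had 71.3, 39.5 and 44.1 FPKM in the same ultrasound libraries and 49.9, 63.0 and 36.4 FPKM in the controls. It too was highest in ultrasound 1, but its lowest library was control 3. The part of oligodendrocyte content in the Hapln2 values was not tested. The log2 fold change of Hapln2 was -0.07 (SE 0.20, edgeR adjusted p = 0.995), 0.10 without ultrasound 2 and 0.0066 without control 1.

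Hapln4, the link protein of brainstem and cerebellar nets that pairs with brevican, had the widest spread among the link proteins. It had 35.8, 22.8 and 18.2 FPKM in ultrasound libraries, against 23.1, 37.2 and 14.2 FPKM in control libraries. Control 2 and ultrasound 1 were high, control 3 was low, and the groups overlapped throughout. For Hapln4 the log2 fold change was 0.08 (SE 0.38, edgeR adjusted p = 0.997). It was -0.20 without ultrasound 1, -0.19 without control 3 and 0.48 without control 2.

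Each lectican gene in the table lies beside a link protein gene, with no other listed gene between them. Hapln4 and Ncan end towards each other on chromosome 8, 2.2 kb apart, Hapln4 at 70536107 to 70543512 on the plus strand and Ncan at 70545735 to 70573523 on the minus strand. Bcan (87894838 to 87907537) and Hapln2 (87929057 to 87934890) run the same way on the minus strand of chromosome 3, 21.5 kb apart. Hapln1 (89687915 to 89759771, plus strand) and Vcan (89803431 to 89890628, minus strand) end towards each other on chromosome 13, 43.7 kb apart. Acan (78703231 to 78764847, plus strand) and Hapln3 (78764850 to 78780766, minus strand) end 2 bases apart on chromosome 7. None of the 10 net genes has the same start and end in GENCODE M21 on GRCm38, where their starts differ by 1 to 726632 bases, so the build of the listed coordinates is not established here although the submitters' processing notes name mm10.

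**Figure D2:**
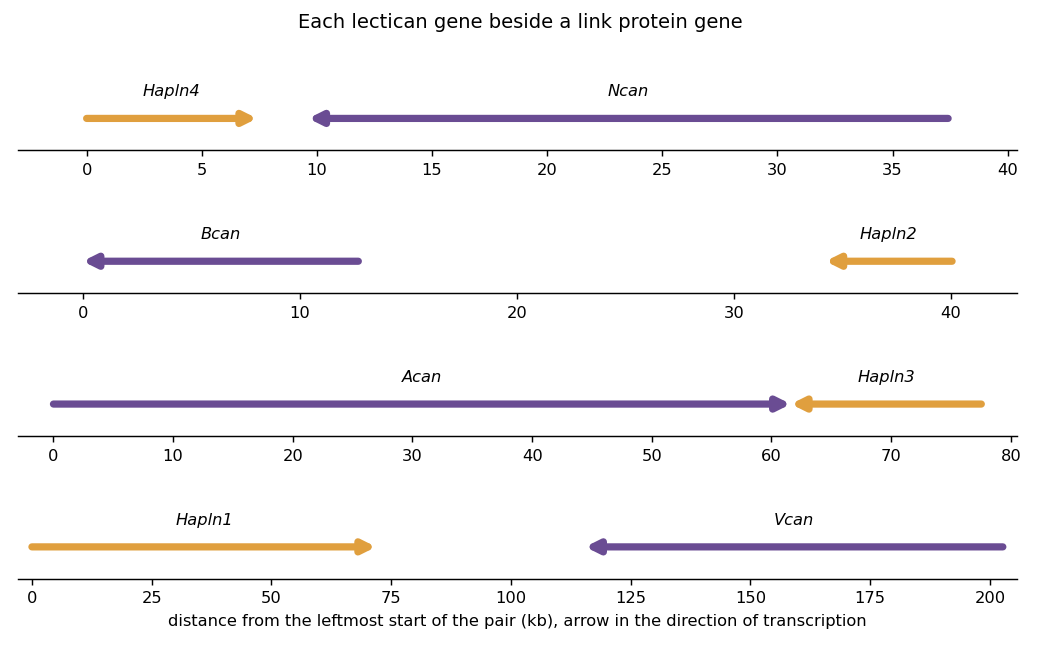
The 4 lectican genes (purple) and the neighbouring link protein genes (orange), drawn to scale within each panel from the table's coordinates as kb from the leftmost start, with arrows in the direction of transcription. The gaps are 2.2 kb for Ncan and Hapln4, 21.5 kb for Bcan and Hapln2, 2 bases for Acan and Hapln3 and 43.7 kb for Vcan and Hapln1.

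Ncan did not overlap between the groups while Hapln4 did, and Hapln1 did not overlap while Vcan did. Vcan had 1.34, 1.09 and 1.27 FPKM with ultrasound, against 1.62, 0.861 and 1.11 FPKM in controls. Its highest and lowest libraries were both controls. Hapln3, the neighbour of Acan and also a link protein, had 0.622, 0.410 and 0.518 FPKM with ultrasound and 0.367, 0.492 and 0.815 FPKM in controls. As with Acan, control 3 was its highest library. Because the files do not state how strand was used in counting, the levels of Acan and Hapln3, which end side by side, carry that uncertainty.

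Tenascin-R, made by oligodendrocyte lineage cells and some neurons, binds the lecticans and gathers them into nets. Tnr had 8.63, 12.3 and 10.9 FPKM in ultrasound libraries, against 10.5, 5.73 and 5.74 FPKM in control libraries. Controls 2 and 3 lay below every ultrasound library, and control 1 lay above ultrasound 1. Tnr had a log2 fold change of 0.58 (SE 0.28), at an unadjusted p of 0.0786 in edgeR and 0.0437 in DESeq2, and an adjusted p of 0.973 in edgeR. Without control 1 it was 0.94 and without control 3 and ultrasound 2 it was 0.26.

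Tenascin-C, the tenascin of reactive glia and of the developing brain, was the scarcest of the set. Tnc had 0.431, 0.704 and 0.492 FPKM in ultrasound libraries, from 165, 281 and 183 counts, against 0.233, 0.340 and 0.407 FPKM in control libraries, from 115, 181 and 136 counts. Every ultrasound library lay above every control, although ultrasound 1 and control 3 were close. Fitted without the filter on levels, Tnc had a log2 fold change of 0.77 (SE 0.39), at an unadjusted p of 0.0691 and an adjusted p of 0.8 in edgeR. It was 0.49 without ultrasound 2 and 0.96 without control 3, the lowest and the highest value with single libraries left out. Gfap, the reactive astrocyte filament, had 32.3, 28.9 and 43.2 FPKM with ultrasound and 27.8, 29.6 and 50.1 FPKM in controls, and those groups overlapped.

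Has3, an enzyme of the plasma membrane that spins out hyaluronan, had 0.5, 0.455 and 0.542 FPKM in ultrasound libraries, against 0.571, 0.380 and 0.711 FPKM in control libraries. The ultrasound values lay within the range of the controls, from 149 to 167 counts each. The log2 fold change was -0.12 (SE 0.34, edgeR adjusted p = 0.995). It was -0.33 without control 2 and -0.09 without control 1, the ends of its range with single libraries left out. Has3 was close to the level minimum and fell under it without control 3. The other synthases were lower still, with Has1 at a mean of 0.228 FPKM and Has2 at 0.0468 FPKM, and neither was tested.

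Ptprz1 had 12.3, 13.5 and 17.1 FPKM in ultrasound libraries, against 11.2, 8.41 and 10.6 FPKM in control libraries. The lowest ultrasound library lay above the highest control. The means were 14.3 ± 2.54 FPKM with ultrasound and 10.1 ± 1.45 FPKM in controls (SD, n = 3 each). Ptprz1 had a log2 fold change of 0.54 (SE 0.18), at an unadjusted p of 0.0153 and an adjusted p of 0.973 in edgeR. It ranged from 0.41 to 0.66 with single libraries left out and was 0.58 without control 3 and ultrasound 2. The table lists 6 transcripts for Ptprz1 and 1 value per library, so receptor and secreted phosphacan forms are summed.

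**Figure D3:**
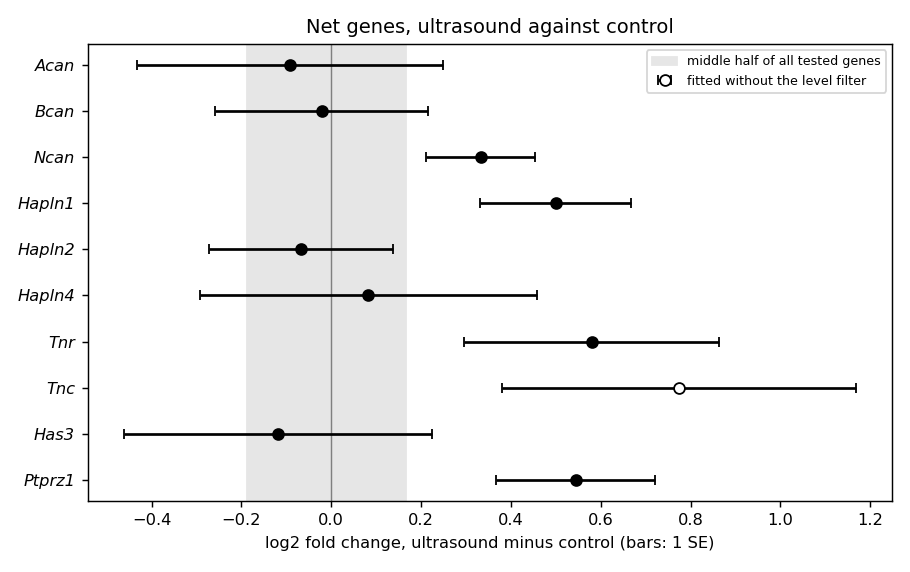
Log2 fold change of each net gene, ultrasound minus control, with bars of 1 SE from edgeR and the range between the quartiles of all tested genes (-0.19 to 0.17) in grey. Ncan, Hapln1, Tnr and Ptprz1 lie to the right of that range, as does Tnc (open circle), which was fitted without the level filter, and none passed on the adjusted p.

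The promoters of the 3 tested genes with higher values in every ultrasound library are shown so that their sequences can be compared. RefSeq gives a 300-base window on GRCm38.p6, from 250 bases before to 50 bases after the transcription start, for 8 of the 10 net genes. The sequences read 5′ to 3′ on the strand of the gene, and capitals mark every match, on either strand, to the TATA box (TATAAA), the GC box (GGGCGG) or the CCAAT box (CCAAT), none of which overlap in these windows. The windows lie at chr8:70120795-70121094 for Ncan (minus strand), chr13:89540386-89540685 for Hapln1 (plus strand) and chr6:22875252-22875551 for Ptprz1 (plus strand).
Ncan: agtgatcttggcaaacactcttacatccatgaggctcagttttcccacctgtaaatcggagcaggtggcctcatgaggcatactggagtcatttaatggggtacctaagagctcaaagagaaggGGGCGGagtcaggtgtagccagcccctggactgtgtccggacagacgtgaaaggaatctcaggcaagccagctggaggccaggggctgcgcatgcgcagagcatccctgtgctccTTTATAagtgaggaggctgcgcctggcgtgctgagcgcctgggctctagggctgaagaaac
Hapln1: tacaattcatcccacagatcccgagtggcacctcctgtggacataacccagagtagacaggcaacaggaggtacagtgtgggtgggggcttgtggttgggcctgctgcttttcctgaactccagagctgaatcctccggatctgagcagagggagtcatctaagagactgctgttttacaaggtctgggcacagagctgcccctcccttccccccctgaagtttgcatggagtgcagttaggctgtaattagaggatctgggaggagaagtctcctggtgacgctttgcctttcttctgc
Ptprz1: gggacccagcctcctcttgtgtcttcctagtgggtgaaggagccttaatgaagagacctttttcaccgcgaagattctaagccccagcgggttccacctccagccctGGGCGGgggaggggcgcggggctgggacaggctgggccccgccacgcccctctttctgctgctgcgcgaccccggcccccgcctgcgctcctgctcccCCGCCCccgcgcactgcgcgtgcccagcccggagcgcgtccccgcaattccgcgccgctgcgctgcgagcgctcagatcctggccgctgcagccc

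The 3 windows had little in common in these letters. The Ncan window held 1 TATA box, read on the strand opposite the gene, and 1 GC box. The Ptprz1 window held 2 GC boxes, 1 on each strand, and the Hapln1 window held none of the 3 motifs. Among 32851 RefSeq windows of the same length, 13.6% held a TATA box, 35.7% a GC box and 37.4% a CCAAT box on either strand. CG dinucleotides numbered 9 in the Ncan window, 3 in the Hapln1 window and 29 in the Ptprz1 window, where the median window held 7 and the quartiles were 3 and 20. A match is a description of the letters only.

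Net genes are made by different cells, and each of the 10 was set against 5 genes that mark cell types: Pvalb for parvalbumin interneurons, Gfap and Aqp4 for astrocytes, Mbp for oligodendrocytes and Pdgfra for oligodendrocyte precursors. These were compared as log2 CPM (counts scaled to library size) over the 6 libraries, which made 50 relations. By exact permutation, 9 had an unadjusted p under 0.05 for Pearson's r and 8 for Spearman's rho. After Benjamini-Hochberg adjustment over the 50, 0 remained, and the lowest adjusted p was 0.0694. The labels give no batch, and 3 libraries per group are too few for a value within a group. The permutation took no account of group, so a relation between genes whose groups are apart includes the group difference. Values without the farthest libraries rest on fewer libraries still.

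Hapln4 went with Pvalb. Pvalb had 55.6, 31.6 and 17.0 FPKM in ultrasound libraries and 35.3, 80.5 and 16.2 FPKM in control libraries, which is the order of libraries seen for Hapln4. Over the 6 libraries r was 0.97 (exact permutation p = 0.00833, adjusted p = 0.0972) and rho was 0.94 (exact permutation p = 0.0167, adjusted p = 0.139). Without control 2 and control 3, the libraries farthest from the median of Pvalb, r was 0.95. Hapln4 also went with the oligodendrocyte gene Mbp, with r of 0.92 (exact permutation p = 0.0194, adjusted p = 0.139) and rho of 0.77 (exact permutation p = 0.103, adjusted p = 0.367), and r of 0.75 without ultrasound 1 and control 2. Bcan ran the other way from Pvalb, with r of -0.90 (exact permutation p = 0.00833, adjusted p = 0.0972) and rho of -0.94 (exact permutation p = 0.0167, adjusted p = 0.139), and r of -0.80 without controls 2 and 3. Bcan and Mbp gave r of -0.83 (exact permutation p = 0.0264, adjusted p = 0.165) and rho of -0.94 (exact permutation p = 0.0167, adjusted p = 0.139), and r of -0.95 without ultrasound 1 and control 2. Hapln2 and Mbp gave r of 0.44 (exact permutation p = 0.425, adjusted p = 0.85) and rho of 0.77 (exact permutation p = 0.103, adjusted p = 0.367), and r of 0.35 without the same libraries. Has3 and Pvalb gave r of -0.85 (exact permutation p = 0.0319, adjusted p = 0.177). Their rho was -0.83 (exact permutation p = 0.0583, adjusted p = 0.292), and r was -0.50 without controls 2 and 3. Acan had an r of -0.53 with Pvalb (exact permutation p = 0.287, adjusted p = 0.682) and a rho of -0.60 (exact permutation p = 0.242, adjusted p = 0.604), and r was -0.12 without controls 2 and 3, so no relation was detectable between the net lectican and this interneuron gene in 6 libraries.

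Tnr and Ptprz1 went with Pdgfra. Pdgfra had 5.98, 7.16 and 9.83 FPKM in ultrasound libraries and 7.24, 3.96 and 4.27 FPKM in control libraries, and controls 2 and 3 were the lowest for it and for Tnr. For Tnr, r was 0.92 (exact permutation p = 0.00972, adjusted p = 0.0972) and rho was 0.94 (exact permutation p = 0.0167, adjusted p = 0.139). Without control 2 and control 3, r was 0.59, so the strength of that relation rested in part on those libraries. For Ptprz1, r was 0.91 (exact permutation p = 0.0153, adjusted p = 0.127) and rho was 0.94 (exact permutation p = 0.0167, adjusted p = 0.139), and r was 0.83 without the same libraries. Pdgfra itself had a log2 fold change of 0.61, ultrasound minus control (SE 0.28, edgeR adjusted p = 0.973). The part of precursor content in the Ptprz1 and Tnr values was not tested.

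Ncan and Tnc went with Aqp4, the water channel of astrocyte endfeet. Aqp4 had 15.4, 17.9 and 17.3 FPKM in ultrasound libraries, against 10.1, 10.7 and 14.7 FPKM in control libraries, so its groups did not overlap either. Its log2 fold change was 0.55 (SE 0.18), at an unadjusted p of 0.0170 and an adjusted p of 0.973 in edgeR. The groups of Ncan, Tnc and Hapln1 were apart too, so their relations to Aqp4 include the group difference. For Ncan, r was 0.96 (exact permutation p = 0.00833, adjusted p = 0.0972) and rho was 0.89 (exact permutation p = 0.0333, adjusted p = 0.208), and r was 0.73 without controls 1 and 2. For Tnc, r was 0.93 (exact permutation p = 0.00139, adjusted p = 0.0694) and rho was 1 (exact permutation p = 0.00278, the smallest that 6 libraries can give, adjusted p = 0.139), and r was 0.95 without controls 1 and 2. Hapln1 with Aqp4 gave r of 0.71 (exact permutation p = 0.126, adjusted p = 0.399). Their rho was 0.89 (exact permutation p = 0.0333, adjusted p = 0.208), and r was 0.66 without controls 1 and 2. Gfap, the other astrocyte gene, was less close to Ncan and Tnc over the 6 libraries. With Ncan its r was 0.48 (exact permutation p = 0.314, adjusted p = 0.682) and its rho 0.54 (exact permutation p = 0.297, adjusted p = 0.676), and r was 0.94 without ultrasound 3 and control 3. With Tnc its r was 0.28 (exact permutation p = 0.568, adjusted p = 0.863) and its rho 0.49 (exact permutation p = 0.356, adjusted p = 0.753), and r was 0.81 without the same libraries. Of 12 astrocyte genes tested, 7 had higher values with ultrasound and the median log2 fold change was 0.02. Aqp4 was the 1 gene of the 12 with an unadjusted p under 0.05 in edgeR, where 2.45% of all tested genes were in that direction. The part of astrocyte content in the Ncan, Tnc and Hapln1 values was not tested.

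**Figure D4:**
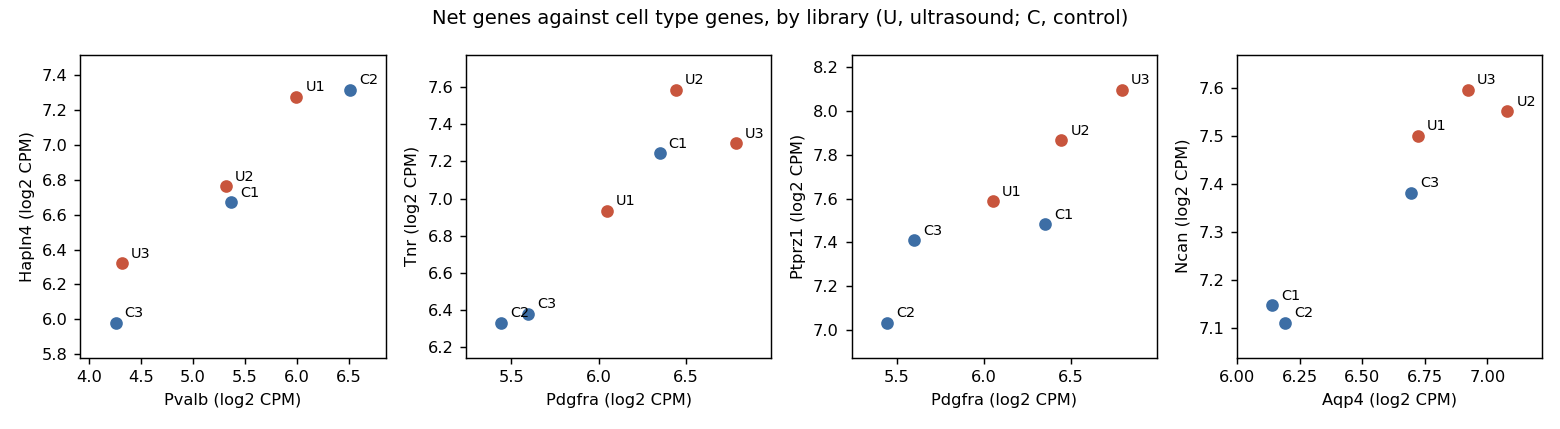
Log2 CPM of Hapln4 against Pvalb, of Tnr and Ptprz1 against Pdgfra, and of Ncan against Aqp4, 1 point per library (U, ultrasound, red; C, control, blue; n = 6). Pearson's r is 0.97, 0.92, 0.91 and 0.96 from left to right, and none passed after adjustment over 50 relations.

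Genes whose library profiles were nearest to those of Acan, Hapln1, Hapln2 and Tnc were sought among 11473 tested protein-coding genes with a mean of at least 1 FPKM. Likeness was the root mean square difference between log2 CPM profiles over the 6 libraries, each centred on its own mean. Dok5, a docking protein of receptor tyrosine kinases, was nearest to Hapln1, at 0.07, followed by Sqle, the squalene epoxidase of sterol synthesis, and Pdia4, a disulphide isomerase. Naglu, Timm21 and Srcap were nearest to Acan, at 0.12 each. Zkscan5, Scaf4 and Rnf31 were nearest to Hapln2, at 0.06 each. Mapk14, Pgbd1 and Aqp4 were nearest to Tnc, at 0.20, 0.21 and 0.23.

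Chondroitin sulphate chains, which give the net its charge, are built on these core proteins by a series of Golgi enzymes. Of 24 enzymes of their synthesis and sulphation, 22 were tested and 12 had higher values with ultrasound and the median log2 fold change was 0.05. Of the 22, 0 passed on the adjusted p in edgeR. An unadjusted p under 0.05 was found for 3, all higher, against 2.45% of all tested genes. Xylt1, the xylosyltransferase that starts the chain, had 7.06, 7.30 and 8.11 FPKM with ultrasound, against 5.73, 4.93 and 5.42 FPKM in controls. Each ultrasound library thus lay above each control. Its log2 fold change was 0.52 (SE 0.13, edgeR unadjusted p = 0.00448, adjusted p = 0.973). Dsel, a dermatan sulphate epimerase, and Chst11, which sulphates chondroitin, differed by log2 fold changes of 0.64 (SE 0.23) and 0.34 (SE 0.13), both also with groups apart. Separation ran both ways: of the 22, 4 had groups apart and higher with ultrasound, against 3.7% of all tested genes. Another 3, Csgalnact1, Csgalnact2 and Xylt2, were apart and lower, against 7.08%. Xylt2, the other xylosyltransferase, had 6.17, 5.55 and 6.41 FPKM with ultrasound and 7.20, 6.81 and 7.76 FPKM in controls, with the groups apart in the other direction, as 7.08% of all tested genes were, and a log2 fold change of -0.23 (SE 0.14, edgeR adjusted p = 0.973). Chst3, a chondroitin sulphotransferase, was not tested, at a mean of 0.371 FPKM.

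Of 8 tested genes for hyaluronan synthesis, turnover and receptors, 4 had higher values with ultrasound, with a median of 0.06, and 0 had an unadjusted p under 0.05 in edgeR. Ugp2 and Ugdh, which make the sugar nucleotide for hyaluronan, had log2 fold changes of 0.28 (SE 0.17) and 0.15 (SE 0.16). Hyal2, a hyaluronidase, had 0.981, 1.95 and 1.40 FPKM with ultrasound, against 2.02, 2.07 and 2.05 FPKM in controls. All controls lay above all ultrasound libraries, as in 7.08% of all tested genes, and the log2 fold change was -0.45 (SE 0.32, edgeR adjusted p = 0.975).

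Among 18 tested proteases that cut lecticans and their inhibitors, 12 had higher values with ultrasound, with a median of 0.16. The 1 gene with an unadjusted p under 0.05 in edgeR was Mmp9, lower with ultrasound, where 2.32% of all tested genes were in that direction. Mmp9 had 0.389, 0.291 and 0.386 FPKM with ultrasound, against 0.952, 1.11 and 0.375 FPKM in controls. Controls 1 and 2 were high and control 3 lay within the ultrasound range. Mmp9 had a mean of 0.356 FPKM with ultrasound and 0.812 FPKM in controls. It thus passed the level minimum only through the controls, so the filter favoured a call in that direction. Its log2 fold change was -1.15 (SE 0.47, edgeR unadjusted p = 0.0401, adjusted p = 0.973), and -1.48 without control 3. No gene of the list had an unadjusted p under 0.05 in limma or with any other single library left out, and without control 3 there were 5. Without control 2, Mmp9 fell under the level minimum and was not tested. S100a8, a neutrophil gene, had 0.438, 2.27 and 1.11 FPKM with ultrasound and 5.61, 8.69 and 0.495 FPKM in controls. Controls 1 and 2 were thus high for it too, and the part of neutrophils in the Mmp9 values was not tested. Mmp2 and Mmp16 had log2 fold changes of 0.91 (SE 0.48) and 0.44 (SE 0.26). Adamts4, an aggrecanase that also cuts brevican, had 3.46, 1.86 and 1.06 FPKM with ultrasound and 2.00, 2.79 and 0.530 FPKM in controls, which overlapped.

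Receptors, ligands and binding partners of net components had 21 of 27 tested genes higher with ultrasound, against 48.8% of all tested genes. With single libraries left out 16 to 23 were higher, and the count was 16 without control 3. The list median was 0.18, and 0 genes passed on the adjusted p in edgeR. An unadjusted p under 0.05 was found for 3 of them in edgeR, all higher, against 2.45% of all tested genes, and for 1 in limma. Nptx2, a neuronal pentraxin that gathers AMPA receptors on parvalbumin neurons, had 20.9, 21.9 and 25.3 FPKM with ultrasound, against 13.0, 18.7 and 10.2 FPKM in controls. All ultrasound libraries were above all controls, with a log2 fold change of 0.74 (SE 0.22, edgeR unadjusted p = 0.00923, adjusted p = 0.973). Nrp1, a receptor for the net-bound guidance protein Sema3a, differed by 0.75 on the log2 scale (SE 0.23) with groups apart, and L1cam, an adhesion molecule bound by neurocan, by 0.35 (SE 0.15) with groups that overlapped. Of the 27, 2 had groups apart and higher with ultrasound, against 3.7% of all tested genes. Ptn, the pleiotrophin ligand of Ptprz1, had 80.8, 80.4 and 72.7 FPKM with ultrasound and 49.4, 65.4 and 79.0 FPKM in controls, with control 3 within the ultrasound range. Ptprs, the receptor phosphatase that binds chondroitin sulphate, had the smallest ratio of highest to lowest library in the list, at 27.0, 26.3 and 27.3 FPKM with ultrasound and 28.3, 28.6 and 28.8 FPKM in controls. Its groups were apart, lower with ultrasound, as 7.08% of all tested genes were, with a log2 fold change of -0.05 (SE 0.10, edgeR adjusted p = 0.988).

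Of 6 further tested proteoglycan and link protein genes, 5 had an edgeR log2 fold change above 0, with a median of 0.05, and 3 with scaling by library totals only, without control 1 or without control 2. An unadjusted p under 0.05 was found for 2 in edgeR, both higher, against 2.45% of all tested genes, and for 0 without ultrasound 3 or without control 2. Cspg4, the NG2 proteoglycan of oligodendrocyte precursors and pericytes, had 1.86, 2.36 and 3.01 FPKM with ultrasound and 1.87, 0.983 and 1.44 FPKM in controls, which overlapped through control 1. Its log2 fold change was 0.79 (SE 0.28, edgeR adjusted p = 0.973). Dcn, the decorin of fibroblasts, had 1.52, 1.505 and 5.52 FPKM with ultrasound and 0.951, 1.07 and 1.34 FPKM in controls, highest in ultrasound 3. Its log2 fold change was 1.37 (SE 0.53, edgeR adjusted p = 0.973), and 0.48 without ultrasound 3.

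**Figure D5:**
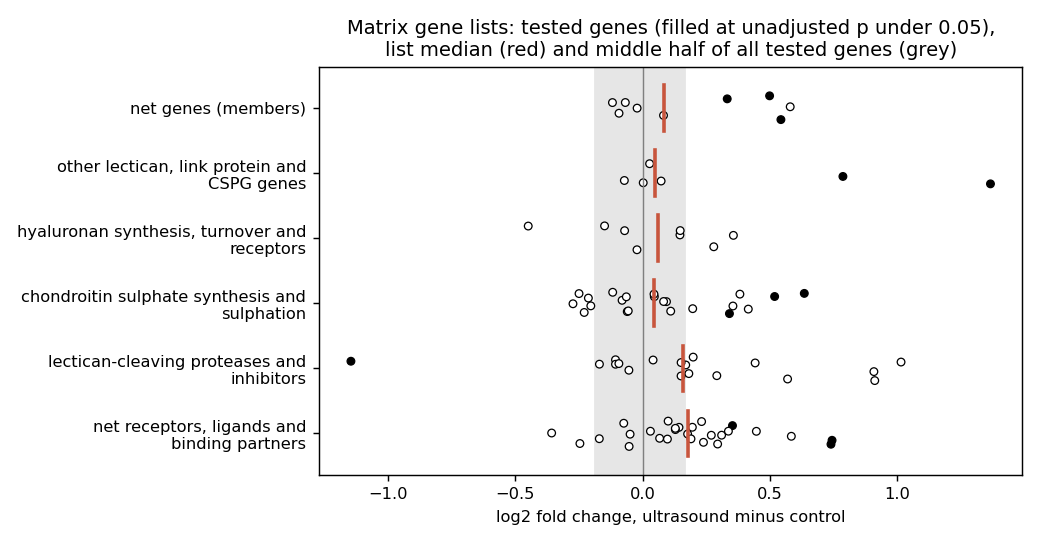
Log2 fold change, ultrasound minus control, of each tested gene in the net set and the other 5 matrix gene lists (points, filled at an unadjusted p under 0.05 in edgeR), with list medians in red and the quartile range of all tested genes in grey. Medians lie between 0.05 and 0.18, and no gene shown passed on the adjusted p.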

How the data were processed

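RNA of 3 ultrasound and 3 control libraries was compared. Raw counts and FPKM per gene were deposited by the authors for 33182 genes. The second unit is named FPKM per the file headers, which do not say how lengths were set. Per the labels' protocols, poly(A) RNA was selected, the second strand was marked with dUTP and read pairs were sequenced. The submitters' processing notes name cutadapt 1.9, HISAT2 2.0.4, StringTie 1.3.4d, DESeq2, edgeR and mm10, without roles. No source used here states the counting tool, its strand setting or how it treated reads that match more than 1 gene. The table has 12 further value columns, which were left out.

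Genes with a mean of at least 0.5 FPKM were tested with edgeR 4.0.16 in R 4.3.3 (quasi-likelihood, TMM scaling, robust option, no covariate). Benjamini-Hochberg adjustment ran over all 15740 genes, and the threshold was 0.05. Log2 fold changes are ultrasound minus control, and SE is the fold change divided by the root of the F statistic. Limma 3.58.1 on log2(FPKM + 0.5), DESeq2 1.42.0, other scalings, filters and left-out libraries served as alternatives. Log2 CPM used TMM scaling and a prior count of 2. The protocol names no molecular identifiers, so PCR copies could be counted more than once.

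The members and the 18 other gene lists, holding 213 symbols of which 212 were found, were chosen with earlier results of these data known. The rule for named genes took all 10 members, the 3 tested genes of each list with the smallest unadjusted p, a few defining genes, and the 3 genes nearest in profile to Acan, Hapln1, Hapln2 and Tnc. Some genes under this rule are not reported here. Hapln3, Xylt2, Ptn and Ptprs, and genes that mark the tissue of single libraries, were named after their values were seen, and so were the relations to cell type genes.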

Additional observations from a re-analysis of the deposited data

How the results depend on the processing

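No alternative passed any net gene on the adjusted p. The number of all genes past the threshold was 1 with all 6 libraries, 29 in DESeq2, 0 in each limma fit (pseudocounts 0.1, 0.5 and 1), 2 with no filter, 8 without control 3 and ultrasound 2, and 1 to 4 with single libraries left out. Net genes with an unadjusted p under 0.05 numbered 3, against 1 to 4 with single libraries left out, 1 without ultrasound 2, 1 without ultrasound 3, and 1 without control 3 and ultrasound 2. Net genes higher with ultrasound numbered 5 of 9, and 5 to 7 with single libraries left out. With single libraries left out, genes with an unadjusted p under 0.05 numbered 1 to 3 for chondroitin sulphate synthesis, 0 to 5 for proteases, 2 to 5 for net partners, 0 to 2 for other proteoglycans and 0 to 1 for hyaluronan genes.

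Ncan, Hapln1, Tnr, Ptprz1, Tnc and Has3 kept their direction in every alternative that gave them a value. Directions turned for the other 4. With single libraries left out, log2 fold changes ranged from -0.23 to 0.13 for Acan, -0.23 to 0.26 for Bcan, -0.18 to 0.10 for Hapln2 and -0.20 to 0.48 for Hapln4. Without control 3 and ultrasound 2 they were 0.34 for Acan, 0.22 for Bcan, 0.059 for Hapln2 and -0.16 for Hapln4. The cause was not tested.

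No pairing by replicate number was seen. Deviations of same-numbered libraries from their group means correlated across genes at -0.04, 0.00 and 0.07 for numbers 1 to 3. Differently numbered libraries gave -0.15 to 0.15, so a modest effect of pairing could not be told from that spread. With the replicate number as a block, 1 gene passed in all and 0 net genes, and Bcan had a log2 fold change of 0.030. Acan, Has3 and Tnc rest on 115 to 289 counts per library.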

Other observations

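The list for parvalbumin interneurons, the cells most often wrapped in nets, had 6 of 16 tested members higher with ultrasound. Its median log2 fold change was -0.11, and 0 members had an unadjusted p under 0.05 in edgeR. It also holds genes of GABA neurons at large, namely Gad1, Gad2, Slc32a1 and Tac1. All of these were highest in control 3, at 81.0, 44.8, 61.7 and 32.6 FPKM, where Pvalb was lowest, at 16.2 FPKM. The count and median thus do not describe parvalbumin cells alone. Kcnab3, a potassium channel subunit, had 34.0, 14.2 and 15.2 FPKM with ultrasound and 30.5, 45.8 and 25.2 FPKM in controls. Control 2 was the highest library for Kcnab3 as for Pvalb and Hapln4. Gad1, the GABA-making enzyme, and Lhx6, an interneuron transcription factor, differed by -0.38 (SE 0.30) and 0.19 (SE 0.17) on the log2 scale. Excitatory cortical genes had 6 of 10 higher, with Slc17a7 at 0.36 (SE 0.16), Cux2 at -0.46 (SE 0.22) and Rorb at -0.55 (SE 0.39). Pan-neuronal genes had 4 of 8 higher, with Eno2 at -0.25 (SE 0.12), Nefm at 0.34 (SE 0.16) and Nefl at 0.22 (SE 0.16).

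Oligodendrocyte genes had 10 of 12 higher, with a median of 0.25, and oligodendrocyte precursor genes 7 of 10, with a median of 0.16, and 0 members of either had an unadjusted p under 0.05 in edgeR. On the log2 scale Ermn differed by 0.37 (SE 0.36), Cldn11 by 0.20 (SE 0.22), Olig2 by 0.44 (SE 0.21) and Gpr17 by 0.27 (SE 0.19). The astrocyte genes Slc1a2 and Aldoc differed by 0.36 (SE 0.16) and -0.13 (SE 0.14). Among 9 microglia genes, 5 were higher and P2ry12 had 11.5, 11.5 and 10.01 FPKM with ultrasound against 5.28, 5.997 and 8.18 FPKM in controls, a log2 fold change of 0.80 (SE 0.21, edgeR adjusted p = 0.973). Cx3cr1 and Tmem119 differed by -1.78 (SE 0.76) and 0.25 (SE 0.17). Endothelial and mural genes had 5 of 9 higher with a median of 0.05, fibroblast genes 4 of 6 with a median of 0.41, choroid plexus genes 3 of 4 with a median of 0.67, and striatal genes 9 of 10 with a median of 0.42. Cldn5, Kcnj8 and Vtn differed by -0.37 (SE 0.25), -0.52 (SE 0.37) and -0.31 (SE 0.29), Lum and Col1a1 by 1.10 (SE 0.50) and 0.57 (SE 0.49), and Kl and Aqp1 by 1.19 (SE 0.85) and -1.24 (SE 1.72). Lum and Kl passed the level minimum only through the ultrasound libraries, and Aqp1 only through control 3. Foxp1 and Pde10a differed by -1.06 (SE 0.36) and 1.13 (SE 0.49). Olfactory bulb genes had 0 of 6 higher, all with their highest value in control 3, where Doc2g, Eomes and Th had 17.6, 6.18 and 11.25 FPKM. Eomes, Th, Omp and Tbx21 passed the level minimum only through control 3. Their direction was set by the filter and that library, so the count is no result about ultrasound. Blood and neutrophil genes had 2 of 5 higher, with S100a9 at -1.79 (SE 1.25) on the log2 scale. Retnlg, a neutrophil gene, was listed at 0 in all 3 ultrasound libraries and at 1.58, 1.44 and 0.299 FPKM in controls. It passed the level minimum only through the controls, so the filter favoured that separation. Of all tested genes, 7.08% had groups apart and lower with ultrasound.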
